A study of Homo sapiens with 10 samples.

Results

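BEAS-2B is an immortalized line of human bronchial epithelial cells, the cell layer that meets inhaled chromate in the airway. The cells were kept in 0.5 µM potassium chromate for 30 days and then grown for 3 weeks in soft agar, where cells cannot attach to a substratum. Colonies were picked from the agar, and each was expanded in monolayer into a line of its own. The comparison described here is between 3 lines grown from large colonies (Cr_large 1 to 3) and 3 lines grown from small colonies (Cr_small 1 to 3), all 6 from chromate-exposed cells. These 6 of the 10 arrays in the series were taken by their labels and not by any measured value. Per the study's methods, the small colonies were picked to be about the size of those that unexposed cells form, and the lines put on arrays were drawn at random from a larger set. The other arrays hold 3 control lines from soft-agar colonies of unexposed cells and 1 parental culture. The control lines are used here for the estimate of spread and as a reference level. The parental array is a group of its own in the fit, adds nothing to that estimate and is given beside PERP and TSPAN13 only. The protocol text in the labels names the chromate exposure for all 10 arrays, and the groups follow the titles instead. Each line descends from 1 colony of 1 exposure and was measured on 1 array, so that every p-value below covers the spread between these lines and not a repeated exposure.

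Growth without a substratum is a feature that many transformed cells share and most epithelial cells lack. Attached cells receive survival signals through integrins and cell junctions, and detached epithelial cells usually stop dividing or die. Colony size in soft agar depends on how soon a cell starts to divide there, how fast its descendants divide and how many survive. The lines were measured after expansion in monolayer, not in the agar itself.

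The arrays were Human Gene 1.0 ST arrays, on which a transcript cluster is the set of probes that reads 1 transcript, and levels are given as log2 of the deposited intensity. A step of 1 on this scale is 2.0-fold, and a level under 6 lies close to the floor of these arrays. All 6 lines had the simple-epithelial keratins KRT8 at 12.18 to 12.65 and KRT18 at 11.91 to 12.31, and the tight-junction protein CLDN1 at 8.93 to 9.62. The airway basal keratin KRT5 stayed at 5.44 to 5.54, and the epithelial adhesion proteins EPCAM and CDH1 at 4.83 to 5.71 and 4.81 to 5.0. Of 5 fibroblast markers, the collagen chain COL1A1 was at 10.33 to 11.72 and COL1A2 at 5.81 to 7.41. The others were near the floor, with PDGFRA at 4.84 to 5.04, DCN at 4.57 to 4.65 and LUM at 4.63 to 4.99. Of 8 immune and endothelial markers, 7 stayed between 4.52 and 5.41 in every line, and the exception was CD14 at 5.66 to 6.82.

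No transcript cluster differed between the large-colony and the small-colony lines once p was adjusted. In a limma fit over all 10 arrays with Benjamini-Hochberg adjustment, 0 of 28869 clusters (0.0%) passed an adjusted p of 0.05, and the smallest adjusted p was 0.426. At an unadjusted p of 0.05, 576 clusters (2.0%) were higher and 690 (2.39%) lower in the large-colony lines, 1266 in all. The methods' t-test, run on the same values, gave 1122 clusters at that p and 0 after adjustment. The 3 large-colony lines all lay above the 3 small-colony lines in 1139 clusters (3.95%) and all below them in 1339 (4.64%).

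The differences were also small, and for most clusters the fit bounded them closely. A 1.5-fold difference of the means was reached by 101 clusters (0.35%) and a 2.0-fold difference by 10. Differences from -0.19 to 0.19 covered the range from the 5th to the 95th percentile of the clusters. Among the 13754 clusters with a mean of at least 6 over the 6 lines, the 95% interval of the difference lay wholly within 1.5-fold for 11671 (84.9%) and within 2.0-fold for 13426 (97.6%). For the others, the interval that 3 lines a group allow reached past these folds. Clusters at an unadjusted p of 0.05 that were also at least 1.5-fold apart numbered 59, of which 39 were higher and 20 lower in the large-colony lines. That number changed with the line left out. It fell to 34 without Cr_large 1, and was 190 without Cr_large 2 and 99 without Cr_large 3. Without Cr_small 1, 2 and 3 in turn it was 86, 99 and 75.

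The lines did not group by colony size. The distance between a pair of lines, the root of their summed squared log2 differences over all clusters, ran from 35.3 to 41.8 in the 6 pairs of like colony size (mean 38.4). It ran from 31.5 to 44.3 in the 9 pairs of unlike size (mean 37.6). The closest pair was Cr_small 1 with Cr_large 2, at 31.5, and these differed at least 2.0-fold in 47 clusters. The farthest pairs were Cr_large 1 with Cr_small 1 and with Cr_small 2, both at 44.3, the latter with 223 such clusters. For each of the 6 lines the nearest neighbour was a line of the other colony size, and Cr_large 2 was the nearest neighbour of all 3 small-colony lines. Correlations between pairs were all between 0.9902 and 0.9950 over the clusters of the array. Colony size took 18.5% of the summed squares among the 6 lines, with 1 of their 5 degrees of freedom (20%).

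**Figure D1:**
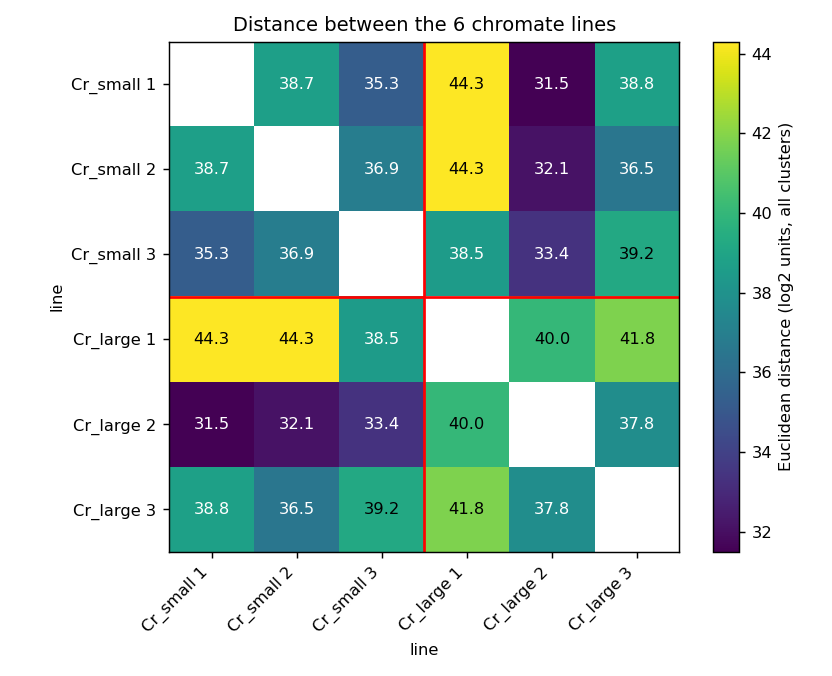
Distance between each pair of the 6 chromate lines, as the root of the summed squared log2 differences over 28869 transcript clusters, as a grid of lines with red bars between the colony sizes. Pairs of unlike size run from 31.5 to 44.3 and span the whole range of the pairs of like size, 35.3 to 41.8.

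The large-colony lines lay somewhat farther apart than the small-colony lines, by less than the test can separate. Distances of the lines to the mean of their own group were multiplied by the root of n/(n-1), where n is the number of lines in the group. So scaled, they were 26.2, 27.3 and 24.9 for the small-colony lines and 29.6, 26.8 and 28.1 for the large-colony lines. The mean was larger by 2.06 for the large colonies, with an exact permutation p of 0.2 (two-sided, 3 lines against 3, where 20 arrangements allow no p under 0.1). At levels of at least 6, the median SD was 0.143 among the large-colony lines, 0.126 among the small-colony lines and 0.123 among the controls. Cr_large 1 stood farthest from the rest, with a mean distance of 41.8 to the other 5 lines against 35 to 38.8 for each of the others.

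The genes named next had an unadjusted p under 0.05, a mean level of at least 6 and no overlap between the groups, and were taken from the 12 with the largest difference in each direction. Since those values chose them, the folds and p-values describe the genes and are not evidence that they differ. The adjusted p of each was 1.0.

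The largest difference was that of PNPLA4, a lipid hydrolase of the patatin family encoded on the X chromosome. It read 6.70, 5.22 and 5.42 in Cr_small 1 to 3 and 6.76, 7.12 and 7.32 in Cr_large 1 to 3, a difference of 1.28 (SE 0.35), or 2.44-fold. Cr_small 1 lay only just under the large-colony lines, and the gap came from Cr_small 2 and 3, while the control lines read 6.91, 6.98 and 6.84. CRYAB, a small heat shock protein that keeps unfolded proteins from aggregating, read 5.73, 6.36 and 5.74 in the small-colony lines and 8.21, 6.39 and 6.77 in the large-colony lines. Its difference of 1.18 (SE 0.42) rested mostly on Cr_large 1, and Cr_large 2 was level with Cr_small 2.

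The surface protein TM4SF1 separated the groups more evenly. Its levels were 7.55, 7.08 and 7.37 in the small-colony lines against 8.35, 8.60 and 8.06 in the large-colony lines, a difference of 1.00 (SE 0.17, 95% interval 0.60 to 1.40). The control lines, at 8.05, 8.40 and 8.01, were within or just under the range of the large-colony lines. The same order held for NAV3, a protein of growing microtubule ends, at 6.51, 6.81 and 6.44 against 8.16, 7.23 and 7.35. The controls again read like the large colonies for it, at 7.77, 7.10 and 7.32.

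Other genes of the cytoskeleton among the 12 were the actin-bundling protein FSCN1, the microtubule-severing protein KATNAL1 and the microtubule-affinity kinase MARK1. FSCN1 read 8.40, 7.89 and 8.5 in the small-colony lines and 9.68, 8.88 and 8.70 in the large-colony lines, KATNAL1 7.90, 7.88 and 7.25 against 8.24, 8.36 and 8.61. MARK1 was dim, at 5.53 to 5.95 against 6.29 to 6.67.

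For 2 membrane proteins, both chromate groups lay above the control lines and the large-colony lines highest. PERP, a desmosomal membrane protein and p53 target, was at 5.93 to 6.36 in the control lines, at 7.91, 7.59 and 8.22 in the small-colony lines and at 9.17, 8.54 and 8.48 in the large-colony lines. The difference between colony sizes was 0.82 (SE 0.22). The tetraspanin TSPAN13 had the same order, with 5.58 to 5.72 in the controls, 6.03 to 6.64 in the small-colony lines and 6.87 to 7.56 in the large-colony lines. The parental culture read 8.23 for PERP, level with the highest small-colony line and above the control lines. For TSPAN13 it read 6.09, within the range of the small-colony lines. RPL39L, a paralog of the ribosomal protein RPL39, differed by 0.87 and C1orf21 by 0.78. Probes for RPL39L may also read its near-identical parent gene.

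**Figure D2:**
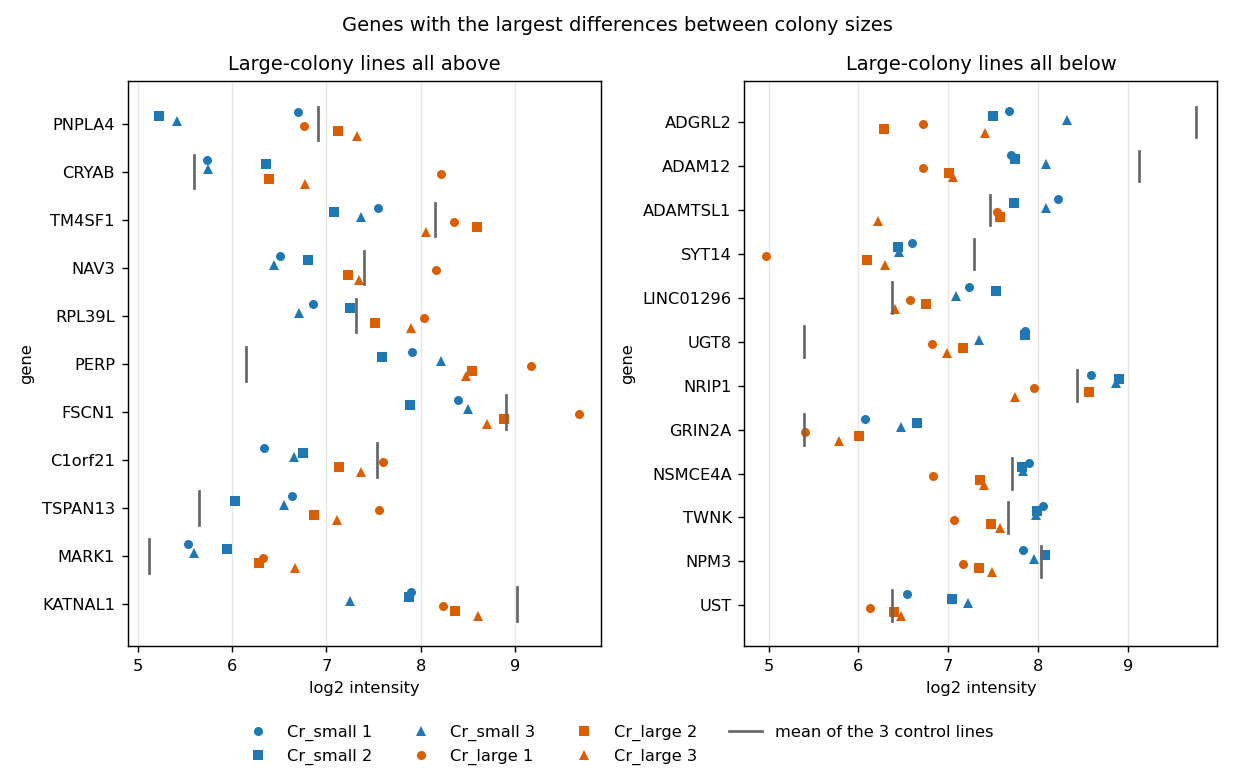
Levels (log2 intensity) of the genes with the largest differences between groups that do not overlap, each point 1 line, with a bar for the mean of the 3 control lines. The groups are apart by construction, and the panels show how far the gap rests on single lines, such as Cr_large 1 for CRYAB and Cr_large 3 for ADAMTSL1.

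The largest difference in the other direction was that of ADGRL2 (latrophilin 2), an adhesion receptor coupled to G proteins. It read 7.68, 7.50 and 8.32 in the small-colony lines and 6.72, 6.29 and 7.41 in the large-colony lines, a difference of -1.03 (SE 0.30). The control lines were at 9.58 to 9.87, above all 6 chromate lines. ADAM12, a membrane metalloprotease, had the same order, with 8.80 to 9.31 in the controls, 7.70, 7.75 and 8.09 in the small-colony lines and 6.72, 7.01 and 7.05 in the large-colony lines. Its difference of -0.92 (SE 0.17) was spread evenly over the lines, with a clear gap between Cr_small 1 and Cr_large 3.

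For 2 further genes, 1 line made most of the difference. ADAMTSL1, a matrix glycoprotein without protease activity, read 8.22, 7.73 and 8.09 against 7.54, 7.58 and 6.22, with a difference of -0.90 and Cr_large 3 far under the others. SYT14, of the synaptotagmin family, read 6.60, 6.44 and 6.45 against 4.97, 6.10 and 6.30, with a difference of -0.71 and Cr_large 1 far under the others.

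UGT8, which makes galactosylceramide, was at 5.34 to 5.48 in the controls, 7.86, 7.86 and 7.34 in the small-colony lines and 6.82, 7.16 and 6.99 in the large-colony lines. Here the small-colony lines lay farther from the controls than the large-colony lines did. The nuclear receptor corepressor NRIP1 read 8.59, 8.90 and 8.87 against 7.96, 8.57 and 7.75, and the gap between Cr_small 1 and Cr_large 2 was slight. The noncoding RNA LINC01296, the glutamate receptor subunit GRIN2A and the sulfotransferase UST were lower in the large-colony lines by 0.70, 0.66 and 0.60 on the log2 scale.

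The other genes of this set, and ADAM12 with them, lie on chromosome 10. NSMCE4A, a subunit of the SMC5/6 DNA repair complex, read 7.90, 7.82 and 7.83 in the small-colony lines and 6.83, 7.36 and 7.40 in the large-colony lines. TWNK, the helicase of mitochondrial DNA, read 8.06, 7.99 and 7.98 against 7.07, 7.48 and 7.58, and NPM3, a nuclear chaperone of the nucleoplasmin family, 7.83, 8.08 and 7.96 against 7.17, 7.34 and 7.49. In all of these Cr_large 1 was the lowest line.

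A gene outside this set, SLC7A2, a carrier of cationic amino acids, passed the adjusted p only in the fit without Cr_large 2. It read 5.46, 5.47 and 5.37 in the small-colony lines and 6.37, 5.48 and 6.28 in the large-colony lines, so that Cr_large 2 lay with the small-colony lines. With all lines the difference was 0.61 (SE 0.20, limma unadjusted p 0.0173, adjusted p 1.0). Without Cr_large 2 it was 0.90 with an adjusted p of 0.019, the single cluster to pass in any fit that left out a line.

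Gene families were described by the median difference of their members, with large minus small on the log2 scale. Over the 10761 genes at a level of at least 6, the median difference was -0.01, 46.6% were positive, and the groups did not overlap in 3.35% (large above) and 4.94% (large below). The counts of the lists take in dim members too, unless a level is named. Over all 18377 genes, 48.4% were positive, and the groups did not overlap in 3.98% (large above) and 4.59% (large below). Of 49 lists with 1400 genes between them, 47 had a median within 0.1 of 0 and 37 within 0.05, and 0 genes passed the adjusted p. The lowest median was that of the cytosolic ribosomal proteins and the highest that of the S100 and annexin proteins.

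Cytosolic ribosomal proteins form the subunits of the ribosome, and their messages share a start of pyrimidines, the 5′ terminal oligopyrimidine tract, through which growth signals set their translation. Of 57 measured, 49 were lower in the large-colony lines and 8 higher, with a median of -0.10 and a range of -0.35 to 0.09. In 12 (21.1%) all 3 large-colony lines lay below all 3 small-colony lines, and in 0 above. The single member at an unadjusted p under 0.05 on its brightest cluster was RPS3, at 12.83, 12.79 and 12.80 against 12.54, 12.73 and 12.74. The members share a control mechanism and a set of lines, so that they are not independent counts.

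The start regions of the 4 of those 12 genes with the lowest differences are shown because the shared feature is visible in them. They are the 30 bases around the RefSeq start, in the GRCh38.p14 build, with the run of C and T in capitals.
RPS19, chr19:41860240-41860269, plus strand: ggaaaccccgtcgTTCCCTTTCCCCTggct
RPL22, chr1:6199581-6199610, minus strand: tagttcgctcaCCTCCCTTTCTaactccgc
RPL37A, chr2:216498829-216498858, plus strand: gcaccgcgTCTCTTCCTTTCTgggctcgga
RPL27A, chr11:8682777-8682806, plus strand: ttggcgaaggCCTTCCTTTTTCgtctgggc

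A run of at least 8 bases that are all C or T on the gene's strand, anywhere in such a window of 30, was found at 42 of the 58 RefSeq starts (72.4%) of 48 ribosomal genes with a start in the table. The share over all 35116 starts was 13.7%. On the opposite strand, as a run of A and G, it was found at 1.72% and 11.2%. Of the 12 genes with all large-colony lines below, 10 had such a run, so that the run is common to the family and does not set these genes apart within it. A match is a description of the letters only.

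The levels of these genes show how narrow the gaps were. RPS19 read 9.97, 9.93 and 10.00 in the small-colony lines and 9.90, 9.84 and 9.46 in the large-colony lines, with Cr_large 3 apart from the rest. RPL22 read 7.72, 7.50 and 7.54 against 7.44, 7.43 and 7.31, and RPL37A 9.35, 9.49 and 9.45 against 9.23, 9.31 and 9.18. RPL27A read 10.45, 10.59 and 10.43 against 10.29, 10.28 and 10.40 on its brighter cluster. A second RPL27A cluster had the same order with a wider gap, at 10.00, 10.21 and 10.37 against 9.26, 9.65 and 9.64. Its difference was -0.68 (SE 0.14, limma unadjusted p 0.00141), outside the range of the brightest clusters. On the clusters given first, the gap between the nearest lines of the groups was 0.06 or less for each of these genes, and many ribosomal genes have processed copies that the probes may also read.

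Small nucleolar RNAs guide the modification of ribosomal RNA, and many lie in introns of ribosomal protein and related genes. Outside the imprinted SNORD115 and SNORD116 families, of which 0 of 40 members reached a level of 6, 151 small nucleolar and Cajal body RNAs were measured. Of these, 107 were lower in the large-colony lines, with a median of -0.08. In 21 (13.9%) all large-colony lines lay below and in 4 above, and 9 were lower at an unadjusted p under 0.05. SNORD1A read 7.02, 7.23 and 7.12 in the small-colony lines and 6.76, 6.69 and 6.62 in the large-colony lines, and SNORA5A 6.88, 6.80 and 6.98 against 6.24, 6.44 and 6.54. SCARNA7 went the other way, at 10.05, 9.84 and 9.83 against 10.39, 10.07 and 10.13. The RNA was purified on a column after extraction, and recovery of short RNA by line was not measured.

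The median of both families was negative with any 1 line left out. Leaving out each of the 6 lines in turn gave a median of -0.12 to -0.06 for the ribosomal proteins, with 44 to 50 of 57 lower, and of -0.12 to -0.05 for the small nucleolar RNAs. Cr_large 3 had low levels along most of chromosome 19, where 8 of the 57 ribosomal genes lie. The other 49 had a median of -0.10, with 41 lower and 11 with all large-colony lines below. The mitochondrial ribosomal proteins had a median of -0.03 over 73 genes. Subunits of oxidative phosphorylation had a median of -0.05, with 53 of 79 lower, and 1 member with the large-colony lines all above and 1 with them all below.

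Neighbouring genes shared shifts in single lines, so the medians were also taken after subtracting, on each array, the median deviation of a gene's chromosomal window, a choice made after seeing the data. The ribosomal proteins then had a median of -0.07 with 48 of 57 lower, and the small nucleolar RNAs a median of -0.06 with 106 of 151 lower. The lean of the oxidative phosphorylation subunits was mostly lost, with a median of -0.01 and 43 of 79 lower.

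**Figure D3:**
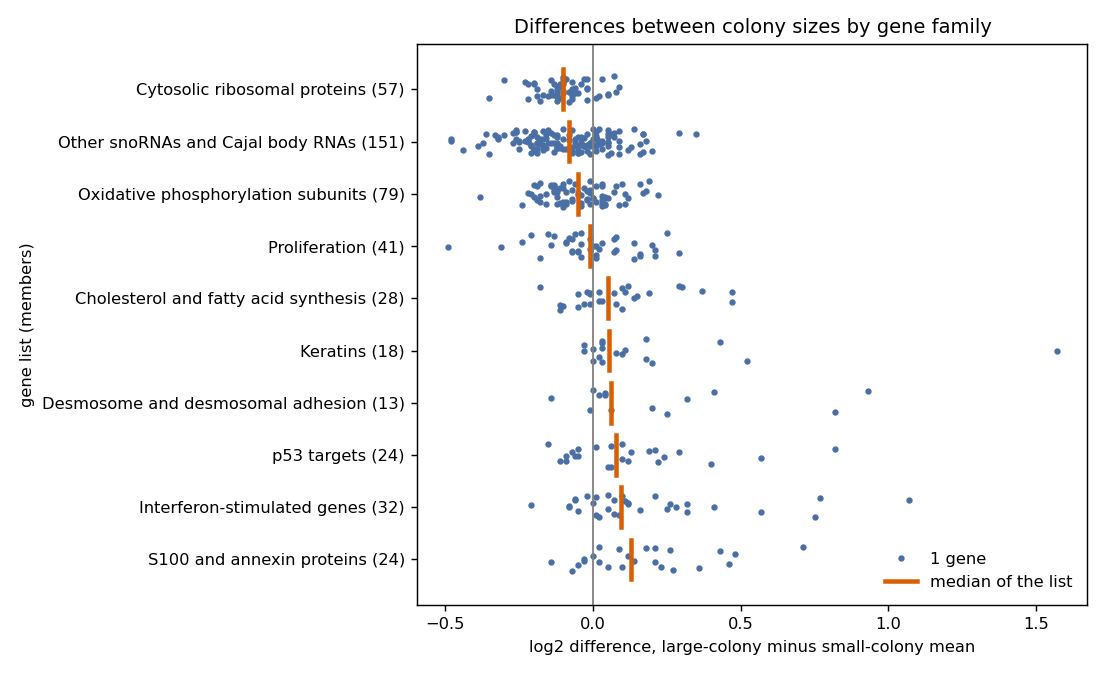
Difference between large-colony and small-colony lines (log2) of each measured member of selected gene families, each point 1 gene, with the median marked. The ribosomal proteins, with 49 of 57 points under 0 and a range of -0.35 to 0.09, lie close together, and the S100 and annexin proteins, with 19 of 24 above 0, have the highest median.

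S100 and annexin proteins bind calcium and attach to membranes and the cortical cytoskeleton. Of 24 measured, 19 were higher in the large-colony lines, with a median of 0.13. S100A10, which pairs with annexin A2 at the membrane, read 12.22, 12.33 and 12.46 in the small-colony lines and 12.59, 12.47 and 12.62 in the large-colony lines, the single member whose groups did not overlap. ANXA1 read 10.52, 11.13 and 10.69 against 11.53, 11.25 and 11, with Cr_small 2 above Cr_large 3. Most S100 genes lie on chromosome 1, whose long arm read high in Cr_large 1 and Cr_large 3. The 10 members elsewhere had a median of 0.19, with 9 higher, but once the median of each gene's chromosomal window was taken off, the median of the 24 was 0.03, with 13 higher.

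Interferon-stimulated genes, which cells switch on against viruses and after some DNA damage, had a median of 0.10, with 25 of 32 higher. The members with the largest differences were high in 1 line only. IFIT2 read 4.98, 4.83 and 5.03 in the small-colony lines and 7.95, 5.12 and 5.0 in the large-colony lines, and IFIT3 5.55, 5.62 and 5.85 against 7.56, 5.74 and 6.03. IFIT1, IFI44 and OASL likewise read 6.33 to 6.82 in Cr_large 1 and 4.56 to 5.48 elsewhere. In 0 of the 32 did the groups separate, and the median was 0.03 without Cr_large 1.

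Desmosomes bind epithelial cells to each other and to their keratin filaments, and 11 of 13 desmosomal genes were higher in the large-colony lines, with a median of 0.06. Beside PERP, the desmosomal cadherin DSG2 separated the groups, at 8.21, 7.86 and 7.82 against 8.29, 8.38 and 8.45. The third member with no overlap, DSG3, was at the floor, at 4.73 to 4.88. Over the 8 members at a level of at least 6 the median was 0.29. Over all 13 with window medians taken off it was 0.27, with 12 higher. That value includes dim members, which were shifted with their window whatever their own level. DSG2, in a window of chromosome 18 that leaned by -0.21, went from 0.41 to 0.63. The largest member, desmoplakin (DSP), read 5.39, 8.30 and 8.16 against 8.79, 7.72 and 8.13, which is a low value in Cr_small 1 and no difference among the others.

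Of 18 keratins 15 were higher, with a median of 0.05, and the lowest difference was -0.03. With window medians taken off 18 were higher, with a median of 0.11. Only 10 of the 18 had a level of at least 6, and the subtraction raised dim members as well. It moved KRT8 from 0.20 to 0.23 and KRT34 from 0.52 to 0.57, offsets as large as the negative differences. The count of 18 is therefore not a lean shared by all members. KRT19, a keratin of simple epithelia, had a difference of 1.57 (SE 0.95), with 5.79, 6.43 and 9.23 in the small-colony lines and 10.07, 8.83 and 7.26 in the large-colony lines. Its range within each group exceeded the difference between them. KRT8, which pairs with KRT18 in simple epithelia, read 12.18, 12.47 and 12.42 against 12.65, 12.48 and 12.52, with Cr_large 2 level with Cr_small 2.

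Among 24 targets of p53, the transcription factor that DNA damage activates, 16 were higher, with a median of 0.08. The 3 whose groups did not overlap were PERP, the death receptor FAS and RRM2B, a subunit of the ribonucleotide reductase used in repair. FAS read 6.07, 5.80 and 5.83 in the small-colony lines and 6.69, 6.33 and 6.37 in the large-colony lines, and RRM2B 7.97, 8.02 and 7.90 against 8.31, 8.08 and 8.14. The cell cycle inhibitor CDKN1A overlapped, at 7.34, 6.80 and 7.29 against 7.52, 7.44 and 7.14, and BBC3, a killer protein of the BCL2 family, differed by -0.05.

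Proliferation genes did not lean to the large colonies. Of 41, 18 were higher and 23 lower, with a median of -0.01. MKI67, the marker of dividing cells, read 9.54, 9.23 and 9.12 in the small-colony lines and 8.60, 8.72 and 9.11 in the large-colony lines, lower by 0.49 (SE 0.15), with Cr_small 3 and Cr_large 3 level. MKI67 lies on chromosome 10 in a run of genes that read low in Cr_large 1 and 2, and with the window median taken off its difference was -0.17. The cyclin CCNE1 read 7.50, 7.42 and 7.71 against 7.33, 7.38 and 7.28. The cyclin-dependent kinase inhibitor CDKN1B was also lower, by 0.21 on the log2 scale.

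Immediate early genes pointed in both directions. EGR1, which growth signals induce within minutes, read 8.16, 8.04 and 7.95 in the small-colony lines and 8.92, 8.58 and 8.42 in the large-colony lines, while MYC read 9.89, 10.06 and 10.06 against 9.68, 9.78 and 9.60. The list of 30 had a median of -0.02. EXO1, an exonuclease of mismatch and double-strand break repair, read 9.33, 9.37 and 9.28 against 10.10, 9.5 and 9.87, in a list of 28 repair genes with a median of -0.04. EXO1 lies on chromosome 1 in a window that leaned by 0.26, and with the window median taken off its difference went from 0.50 to 0.25.

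Matrix and surface proteins showed no common direction. Fibulin 1 (FBLN1) read 6.77, 6.07 and 6.69 in the small-colony lines and 7.73, 7.06 and 6.89 in the large-colony lines. Tenascin C (TNC) read 9.78, 9.57 and 10.04 against 8.73, 9.79 and 7.99, with Cr_large 2 among the small-colony lines. The mucin MUC1 read 6.28, 6.0 and 6.39 against 6.92, 6.52 and 7.28, and its difference went from 0.69 to 0.51 with the window median taken off. Integrins had a median of 0.08 over 20 genes, which was -0.01 without Cr_small 2, and collagens a median of 0.02 over 23.

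Further lists that bear on chromate or on growth in agar lay within 0.03 of 0. They were the glutathione and NRF2 targets (-0.02, 34 genes), hypoxia and glycolysis (-0.02, 35), the unfolded protein response (-0.01, 28), TGF-beta and BMP signaling (0.01, 35) and WNT and Notch signaling (-0.02, 42). The metallothionein MT2A, which binds metal ions, read 13.15, 12.87 and 13.03 against 13.05, 13.02 and 12.79. Sulfate and anion carriers, the family through which chromate enters cells, had a median of -0.03 over 17 genes, and the largest difference of any of them was -0.23.

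The genes that the study tabulated for their large changes against the controls were chosen by it on these same arrays. Between the colony sizes, 41 of them had a median difference of 0.03, 2 had all large-colony lines above and 1 all below, and 5 differed at least 1.5-fold. These 5 were PERP and ADGRL2, given above, and CYP1B1, ADAMTS1 and OLR1, whose groups overlapped. CYP1B1, a P450 enzyme induced through the aryl hydrocarbon receptor, read 8.34, 7.67 and 9.36 in the small-colony lines and 6.48, 7.03 and 8.51 in the large-colony lines, against 10.09 to 10.45 in the controls. The protease ADAMTS1 read 9.65, 10.17 and 9.65 against 8.53, 9.99 and 8.49. The scavenger receptor OLR1 read 7.94, 8.63 and 7.75 against 9.5, 8.10 and 9.54, and in both genes Cr_large 2 lay with the small-colony lines.

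Each line had genes of its own, with levels beyond those of all 5 other chromate lines. Counted at 2.0-fold beyond the nearest of them, Cr_large 1 had 20 clusters above and 7 below, Cr_large 3 had 4 and 8, Cr_small 2 had 1 and 6, Cr_small 3 had 3 and 3, Cr_small 1 had 0 and 4, and Cr_large 2 had 1 and 0. The genes given for each line are those farthest from the nearest other line, and their levels chose them.

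In Cr_small 1, the Rag GTPase RRAGD, part of amino acid sensing, was at 7.24 against 5.22 to 6.30 in the other lines, and the elongation factor EEF1A2 at 8.57 against 7.18 to 7.77. Desmoplakin was at 5.39 against 7.72 to 8.79. In Cr_small 2, the proteoglycan serglycin (SRGN) was at 7.47 against 9.87 to 10.71 and the phosphatase CPPED1 at 6.55 against 8.42 to 9.68. In Cr_small 3, the complement component C3 was at 7.74 against 5.57 to 6.47, the teneurin TENM2 at 8.71 against 6.02 to 7.07, and the glycine-cleaving enzyme GLDC at 7.24 against 8.26 to 8.61.

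Cr_large 1 had the hair keratin KRT34 at 10.01 against 7.19 to 8.25, the proteoglycan SPOCK1 at 8.67 against 6.31 to 7.08, and the zinc carrier SLC39A8 at 6.33 against 7.43 to 8.40. Cr_large 2 had few such genes, led by RGS4, a brake on G protein signaling, at 9.88, and the integrin chain ITGA4 at 7.71 against 6.46 to 6.96. RGS4 was also the gene farthest below the rest in Cr_large 3, at 6.59 against 8.12 to 9.88, so that lines from large colonies held both its extremes. Cr_large 3 had the cytokine IL18 at 7.98 against 5.33 to 6.95 and the lipase inhibitor G0S2 at 7.38 against 8.60 to 9.59.

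**Figure D4:**
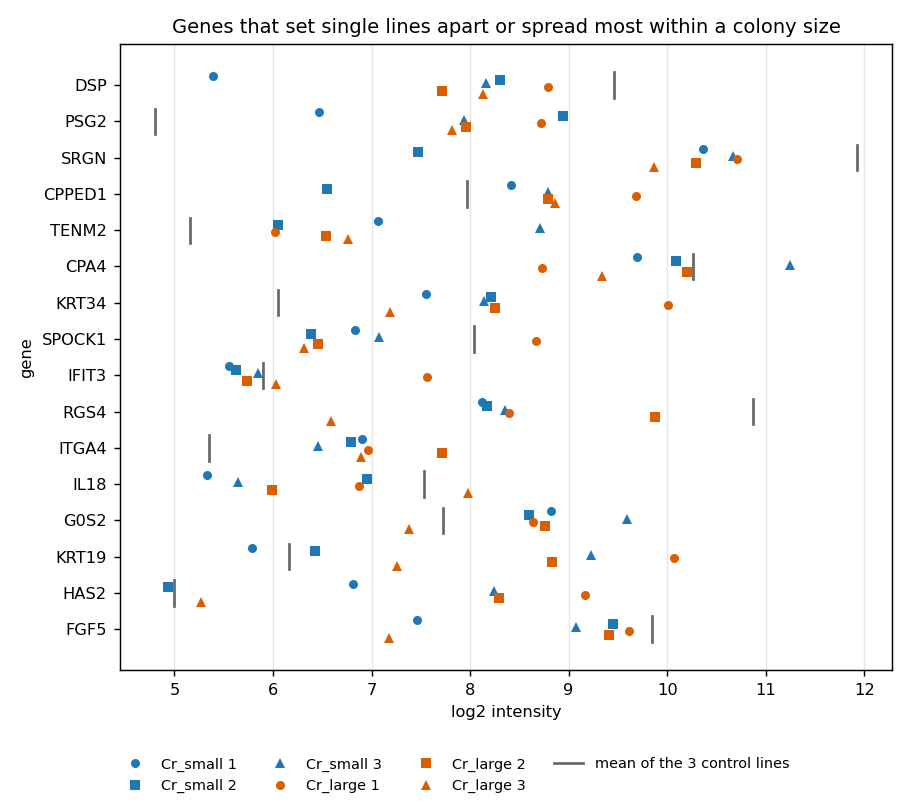
Levels (log2 intensity) in the 6 chromate lines of genes farthest from the nearest other line or with the largest spread, with a bar for the mean of the 3 control lines. DSP in Cr_small 1, SRGN in Cr_small 2, TENM2 in Cr_small 3, KRT34 in Cr_large 1 and RGS4 in Cr_large 2 and 3 stand apart from lines of both colony sizes.

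The genes with the largest spread inside the groups crossed the colony sizes too. HAS2, which makes hyaluronan, read 6.81, 4.93 and 8.24 in the small-colony lines and 9.17, 8.29 and 5.27 in the large-colony lines, and FGF5, a growth factor, 7.46, 9.45 and 9.08 against 9.61, 9.41 and 7.18. The pregnancy-specific glycoproteins, placental proteins of the CEA family, had a median difference of 0.01 over 7 genes, which ran from -0.36 to 0.80 as single lines were left out. PSG3 read 6.23, 9.37 and 7.96 against 8.86, 7.84 and 7.15. The genes of that family are near-identical in sequence, so that probes may read several of them.

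Levels were also followed along the chromosomes, in 238 windows, each holding 31 or more genes that follow each other in RefSeq's order and have a mean level of 7 or higher. Each line's value for a window is the median over its genes of the difference from the mean of the other 5 lines. By this measure whole chromosomes and arms were shifted in single lines. Chromosome 18 was at -0.57 in Cr_large 1, with its 3 windows between -0.62 and -0.52. Chromosome 19 was at -0.30 in Cr_large 3, chromosome 3 at 0.30 in Cr_small 1 and chromosome 14 at -0.29 in Cr_small 2. DNA copy number was not measured in these lines.

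In 48 of the 238 windows (20.2%) at least 1 line was past 0.3 in either direction. Cr_large 1 was above in 9 and below in 14, Cr_large 3 in 3 and 9, Cr_small 1 in 9 and 1, Cr_large 2 in 0 and 4, Cr_small 3 in 2 and 2, and Cr_small 2 in 0 and 2. Some shifts were short, such as 2 neighbouring windows of chromosome 3 (NXPE3 to IQCB1 and MIX23 to ACAD9) at -0.50 and -0.40 in Cr_small 3. The difference between colony sizes was past 0.3 in 2 windows. They were NEK2 to LBR on chromosome 1 (0.31), where Cr_large 1 and 3 were at 0.41 and 0.23, and PLPP4 to MTG1 on chromosome 10 (-0.36), where Cr_large 1 and 2 were at -0.34 and -0.33.

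**Figure D5:**
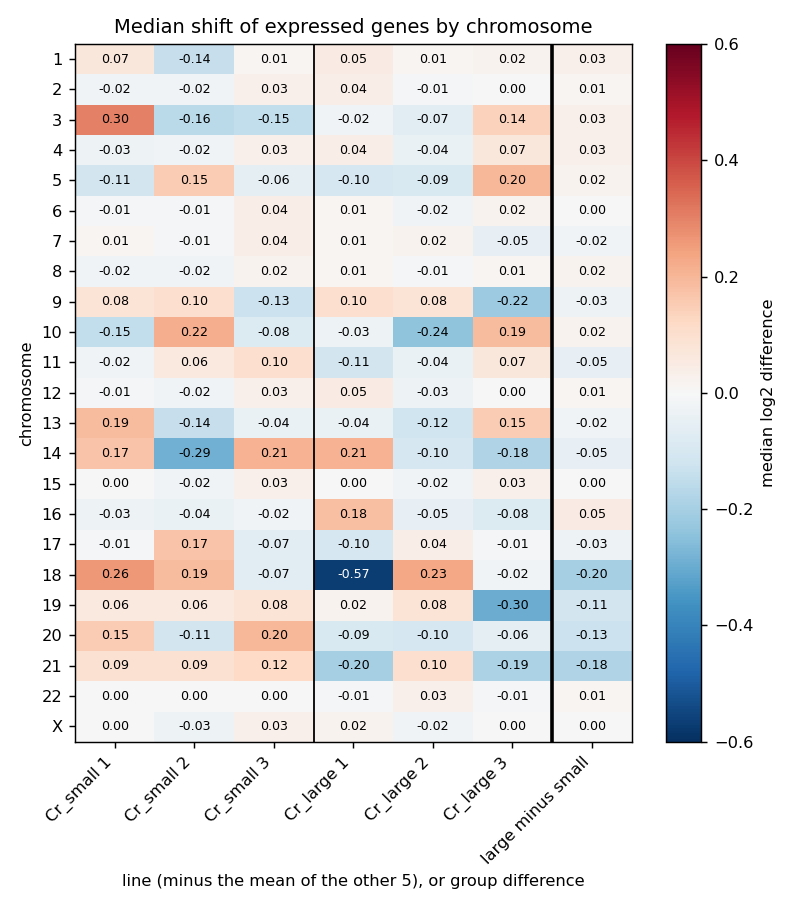
Median difference (log2) of the genes of each chromosome (rows) in each chromate line (columns) from the mean of the other 5, with large minus small in the last column. Chromosome 18 in Cr_large 1 (-0.57), chromosome 19 in Cr_large 3 (-0.30) and chromosome 3 in Cr_small 1 (0.30) stand apart from the other lines.

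These windows move with part of the gene differences. PPP2R2D, a regulatory subunit of the phosphatase PP2A, had the smallest adjusted p of all clusters (0.426), with 9.10, 9.05 and 9.05 in the small-colony lines and 8.58, 8.58 and 8.72 in the large-colony lines. It lies in the window of chromosome 10 with the largest shift, and with window medians taken off its difference went from -0.44 to -0.12. It was singled out after its values were seen. ADAM12, NSMCE4A, TWNK and NPM3, also on chromosome 10, went from -0.92, -0.65, -0.64 and -0.62 to -0.60, -0.33, -0.33 and -0.32. C1orf21 and MARK1, on the long arm of chromosome 1, went from 0.78 and 0.74 to 0.46 and 0.42. PNPLA4 (1.28 and 1.29), CRYAB (1.18) and PERP (0.82 and 0.80) were as large with the window medians taken off. SYT14 and GRIN2A grew in size, from -0.71 and -0.66 to -0.93 and -0.79. Of the 23 genes with the largest differences that lie in a window, 16 had a window that leaned the same way, 11 of them by over 0.1. The 16 include windows close to 0, such as those of PNPLA4 (0.02) and CRYAB (0.01). The share of all genes that lean with their window was not counted, so that the 16 cannot be set against it. The part of gene dosage in any of these differences was not tested.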

How the data were processed

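Total RNA of 10 cell lines or cultures was hybridised to 10 Affymetrix Human Gene 1.0 ST arrays. The deposited table holds linear intensities, which the authors summarised and quantile-normalized by RMA16 in GeneSpring v11, a version of RMA that adds a constant of 16 and so shrinks the fold of dim probes. Their log2 was taken. Of 28869 transcript clusters, 19310 carry 1 gene symbol in the platform annotation, 1752 several and 7807 none. A gene with several clusters is given by the brightest, 18377 genes in all. limma 3.58.1 (R 4.3.3) fitted 1 mean for each of 4 groups (large, small, control, parental) over the 10 arrays, with 6 residual degrees of freedom and Benjamini-Hochberg adjustment over all clusters. The fit was tested on simulated data. Genes were named by fixed rules: the 12 largest differences in each direction at an unadjusted p under 0.05 without overlap, genes passing an adjusted p, the 3 genes farthest from the rest for each line and side, up to 4 genes of a list, genes of the study's table at least 1.5-fold apart, and the 10 with the largest spread. Members of the lists described were also given where they were well known or reached an unadjusted p under 0.05. The gene lists and comparisons were chosen with earlier results of these data known. Start sequences are from RefSeq (GRCh38.p14). No batch is given in the labels. The number of arrays limits the precision. Not every gene that these rules name is reported here.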

Additional observations from a re-analysis of the deposited data

How the results depend on the processing

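The count of clusters past an adjusted p of 0.05 was 0 in every alternative with all 6 chromate lines, and 0 to 1 when a line was left out. The count at an unadjusted p under 0.05 and 1.5-fold, 59 as reported, was 21 by the methods' t-test, 132 with the RMA16 constant subtracted, and 34 to 190 without 1 line. The cause was not tested. Clusters with an interval within 1.5-fold numbered 26480, and 17453 where only those with 1 symbol were tested, which are fewer. The share of the summed squares between colony sizes was 20.2 to 28.3% without 1 line, where colony size holds 1 of 4 degrees of freedom (25%), and 18.5% with all, where it holds 1 of 5 (20%). The difference in distance to the group mean, scaled as above, was 0.602 to 3.41 without 1 line. With the line number as a replicate block, 0 clusters passed the adjusted p, 61 passed the other rule and 26337 had an interval within 1.5-fold. The numbers do not pair the lines (correlations of deviations -0.107, 0.026 and -0.145). Chosen after seeing the data, the removal of window medians gave 0, 52 and 26915, with 743 higher and 627 lower at an unadjusted p under 0.05, against 576 and 690. No direction of a named gene that reached an unadjusted p under 0.05 was reversed. Dim genes near the floor limit the folds that can be read.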
